A study of Homo sapiens with 2 samples.

Results

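Expression of 10 genes of the amino acid response was read on Affymetrix arrays of hTERT-RPE1 cells: the transcription factors ATF4, ATF3 and DDIT3, the pseudokinase TRIB3, and the enzymes ASNS, PHGDH, PSAT1, PSPH, SHMT2 and MTHFD2. They were chosen by name, and with the same contrast of these arrays already known, so their values are a description and carry no test. All probe sets annotated to one of these symbols and to no other gene were taken. This gave 20 probe sets for 10 of the 19775 genes with a named probe set. The filter, at or above 100 on the brighter of the 2 arrays, was passed by 15 of the 20 probe sets and by at least 1 probe set of each of the 10 genes.

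The cells are a telomerase-immortalised human retinal pigment epithelial line. Both groups grew in serum-containing medium with hygromycin B and were transfected by a lipid reagent, one with a control oligo and the other with a miR-129-3p oligo, labelled as overexpression of this microRNA, whose level was not measured here. RNA was taken 72 h later, and 1 array was hybridised for each group. With 1 array per group there is no replicate error, and every difference below compares 2 arrays rather than 2 conditions. Median signals were 96.5 (control) and 98.0 (miR-129-3p) over 54613 probe sets. Differences are log2(signal + 16) on the miR-129-3p array minus the same value on the control array, a scale that shrinks the differences of dim probe sets. As a yardstick, the log2 differences of several probe sets of one gene had a pooled SD of 0.37 over 6179 genes, which leaves out any spread between cultures.

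Of 11 markers of pigment epithelium, 4 reached a signal of 100. MITF read 2470 (control) and 1020 (miR-129-3p), OTX2 1452 and 1625, PMEL 114 and 229, and TTR 91.0 and 109.6, whereas the visual cycle enzyme RPE65 read only 6.44 and 6.66. The mature pigment epithelial programme was therefore largely below the filter, while KRT8 (6138 and 4918) and KRT18 (5787 and 2972), of simple epithelium, and VIM (18475 and 16201), of mesenchymal cells, were bright on both arrays. MITF and KRT18 were lower and PMEL higher by at least 1.5-fold, and their part in the results below was not tested. Only 1 of 7 blood cell markers with a probe set, HBB (162 and 149), and 2 of 6 neuronal markers were above the filter. The summed signal of the blood markers was 455 (control) and 447 (miR-129-3p), and that of the neuronal markers was 491 and 503, each gene by its brightest probe set. A dimmer probe set of the neuronal marker SNAP25 differed by 2.82 on the log2 scale, against 0.29 on its brightest. That dimmer probe set passed the filter only through the miR-129-3p array, so it could only be higher.

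ATF4 is a basic leucine zipper transcription factor whose protein is made more efficiently when translation factor eIF2 is phosphorylated, as happens when amino acids run short, when proteins misfold in the endoplasmic reticulum or when double-stranded RNA is sensed. It then activates genes for amino acid synthesis and uptake, among them asparagine synthetase and the enzymes that turn a glycolytic intermediate into serine and pass its carbon to mitochondrial folate. With partners such as ATF3 and DDIT3, also called CHOP, the same pathway can turn towards growth arrest and cell death. Because ATF4 is controlled largely at translation, its mRNA level on an array is not a measure of its protein.

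The agent itself is shown first, since the comparison turns on it. Human cells encode 2 mature 3p forms of miR-129, and RefSeq's sequences (GRCh38.p14) are printed with the seed, bases 2 to 8, in capitals. The labels do not say which form the oligo copied, and the oligo's own sequence is not given in the sources used here.
hsa-miR-129-1-3p (chr7:128207920-128207941, plus strand): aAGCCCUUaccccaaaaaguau
hsa-miR-129-2-3p (chr11:43581450-43581471, plus strand): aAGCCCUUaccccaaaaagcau
Both are 22 bases long with the same seed, and they differ at 1 position, base 20. Target sites in the members' transcripts were not analysed here.

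The largest differences among the 10 genes were lower signals of enzymes. On the brightest probe sets all 6 enzymes were below 0 and all 4 regulators above 0, but PSPH, ATF4, ATF3 and TRIB3 lay between -0.17 and 0.17, within the 0.37 given above, and roles were not tested against each other. In RNA of a whole culture, fewer cells with a transcript and less of it per cell cannot be told apart. At least 1.5-fold lower were PSAT1, ASNS, MTHFD2 and PHGDH, and at least 1.5-fold higher was DDIT3. The enzymes had a median log2 difference of -0.87 and the regulators one of 0.15. Over all 10 genes the median was -0.35, against 0.03 for the 12754 genes above the filter. That median moves with the genes that are kept: it was -0.53 with a mean signal of 200 or more (9 genes) and -0.02 without probe sets ending in _x_at or _s_at (8 genes). In the same comparison 10.8% of those 12754 genes were at least 1.5-fold lower and 17.3% at least 1.5-fold higher. Since the genes were picked with this contrast known, their counts of 4 and 1 are not read against these shares.

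**Figure D1:**
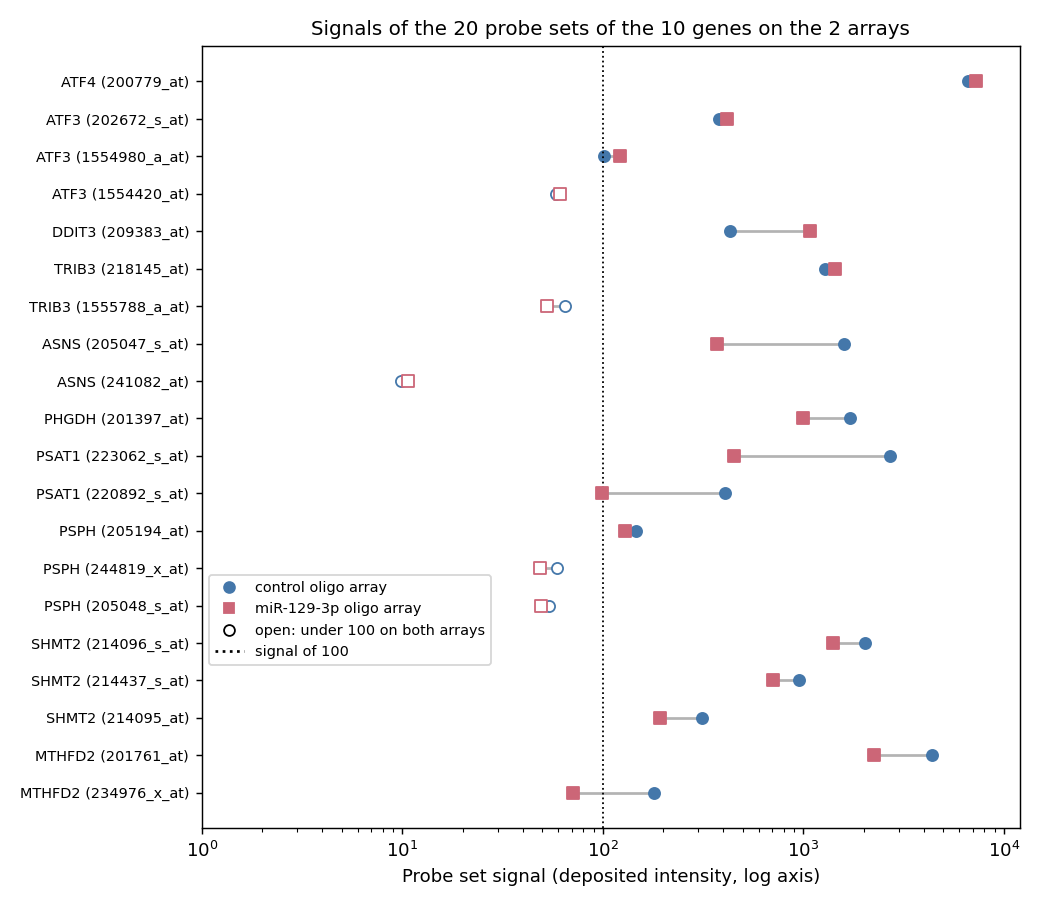
Signals of all 20 probe sets of the 10 genes on the control array (circles) and the miR-129-3p array (squares), on a log axis, with open symbols for probe sets under 100 on both arrays. Both PSAT1 probe sets, the bright ASNS probe set and both MTHFD2 probe sets lie clearly lower with miR-129-3p, DDIT3 lies higher, and ATF4, ATF3 and TRIB3 lie close together on the 2 arrays.

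Among the transcription factors, ATF4 had 1 probe set (200779_at), which read 6621 (control) and 7247 (miR-129-3p). That is a log2 difference of 0.13, smaller than the spread between probe sets of one gene. The ATF4 transcript was thus bright and nearly level on the 2 arrays.

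ATF3, a stress-induced repressor and partner of other bZIP proteins, had 3 probe sets. The brightest (202672_s_at) read 379 (control) and 416 (miR-129-3p), a difference of 0.13. The next (1554980_a_at) read 102 and 122, a difference of 0.23, and the last was under the filter at 58.4 and 61.1. No ATF3 probe set moved by more than the within-gene spread.

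DDIT3 encodes CHOP, a bZIP factor that dimerises with C/EBP proteins and promotes cell death under lasting stress. Its 1 probe set (209383_at) read 429 (control) and 1083 (miR-129-3p), 2.52 times as much. The log2 difference of 1.30 was the 662nd highest of 12754 genes. DDIT3 was the one regulator of the 4 past 1.5-fold, and there is no further probe set of the gene to compare it with.

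TRIB3, a pseudokinase that ATF4 and CHOP induce and that feeds back on ATF4, read 1286 (control) and 1445 (miR-129-3p) (218145_at), a difference of 0.17. A dimmer probe set fell under the filter at 65.1 and 52.4. The TRIB3 signal was therefore near level beside a DDIT3 signal that was not.

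Asparagine synthetase, ASNS, makes asparagine from aspartate and glutamine. Its bright probe set (205047_s_at) read 1603 (control) and 373 (miR-129-3p), so the control signal was 4.30 times as high. The log2 difference of -2.06 was the 102nd lowest of 12754 genes. A further ASNS probe set (241082_at) was near the bottom of the scale on both arrays, at 9.88 and 10.7, and gives no independent reading.

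Serine is made from the glycolytic intermediate 3-phosphoglycerate in a chain of 3 enzymes: PHGDH oxidises it, PSAT1 adds the amino group and PSPH removes the phosphate. PHGDH (201397_at) read 1716 (control) and 994 (miR-129-3p), a log2 difference of -0.78. A separate probe set that the annotation assigns to MZT2A and MZT2B as well as PHGDH (212995_x_at), and that was left out for that reason, read 2881 and 1937, a difference of -0.57. Both probe sets read lower, but only the first belongs to PHGDH alone, so the second is not a reading of that gene by itself.

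PSAT1 had the largest difference of the 10 genes. Its brighter probe set (223062_s_at) read 2698 (control) and 453 (miR-129-3p), so that the control signal was 5.96 times as high, a log2 difference of -2.53. The dimmer one (220892_s_at) read 405 and 99.0, a difference of -1.87. The 2 probe sets go the same way, though the dimmer passed the filter only on the control array. The brighter was the 49th lowest of 12754 genes.

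PSPH, the last enzyme of the chain, read 147 (control) and 128.8 (miR-129-3p) (205194_at), a difference of -0.17. Its other probe sets stood under the filter, at 59.1 and 48.7 and at 53.9 and 49.2. PSPH was thus dim on both arrays, with 3 small differences of one sign, and within the serine chain the difference was large for PSAT1, smaller for PHGDH and within the probe set spread for PSPH. PSPH has a closely similar pseudogene, so its probe sets may share transcripts.

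SHMT2 and MTHFD2 act next, in mitochondria: SHMT2 splits serine into glycine and a one-carbon unit on folate, and MTHFD2 oxidises that unit. SHMT2 had 3 probe sets above the filter, which read 2042 and 1410 (214096_s_at), 953 and 706 (214437_s_at), and 312 and 193 (214095_at) (control, then miR-129-3p). Their log2 differences were -0.53, -0.43 and -0.65. All were below 0, and only the dimmest passed 1.5-fold.

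MTHFD2 read 4399 (control) and 2244 (miR-129-3p) (201761_at), a log2 difference of -0.97. Its second probe set (234976_x_at) read 181 and 71.0, a difference of -1.18. Both MTHFD2 probe sets passed 1.5-fold, though the second passed the filter only on the control array. The brighter was the 626th lowest of 12754 genes, next to the 901st for PHGDH and the 1559th for SHMT2.

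Over the 15 probe sets above the filter, 10 were below 0 and 5 above, with 7 at least 1.5-fold lower and 1 at least 1.5-fold higher. In these counts a gene with several probe sets counts more than once. The shares over all genes are per gene, so these counts are not read against them. Of the 4 genes at least 1.5-fold lower, PSAT1 and MTHFD2 had a second probe set above the filter, and it was also at least 1.5-fold lower in both. Each passed the filter only through the control array, at 405 against 99.0 for PSAT1 and 181 against 71.0 for MTHFD2. Probe sets that pass in this way can only be lower, so these give no separate support. The 4 genes all read over 1000 on the control array. Of the 4776 genes at or above 1000 on at least 1 array, 13.8% were lower and 20.1% higher by at least 1.5-fold, and 8 of the 10 genes are in that class. A gene can enter this class through its brighter array alone, as ASNS, PSAT1 and PHGDH (control) and DDIT3 (miR-129-3p) did. The 10 genes are therefore not read against these shares.

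**Figure D2:**
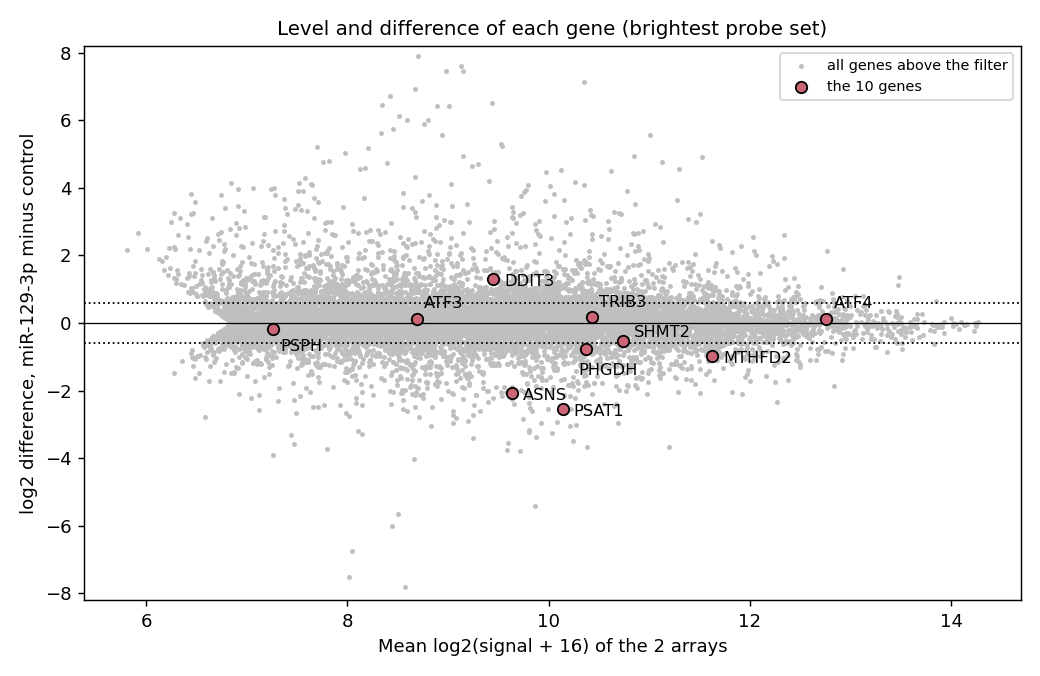
Mean log2(signal + 16) of the 2 arrays (horizontal) and log2 difference, miR-129-3p minus control (vertical), for the brightest probe set of each of 12754 genes (grey) and the 10 genes (red), with dotted lines at 1.5-fold. PSAT1 (-2.53) and ASNS (-2.06) lie at the lower edge of the cloud at their level, DDIT3 (1.30) in its upper part, and ATF4 (0.13), ATF3 (0.13) and TRIB3 (0.17) near 0.

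**Figure D3:**
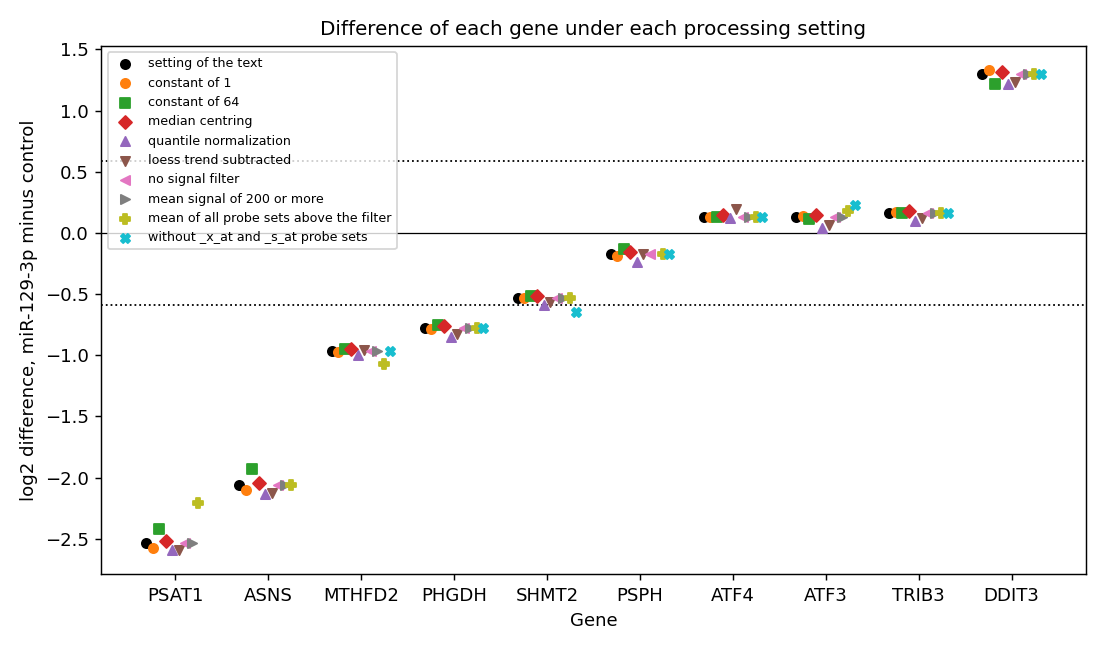
Log2 difference (miR-129-3p minus control) of each of the 10 genes under the setting of the text and 9 others, with dotted lines at 1.5-fold. Each gene stays on its side of 0 in every setting that measured it, and SHMT2 (-0.65 to -0.51) is the gene that crosses the 1.5-fold line.

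ASNS and ATF3 were the genes with a match to the core of the C/EBP-ATF response element in the start-site windows searched. This element, TGATGNAA, is the kind of site through which ATF4 acts on its targets, and it was looked for on both strands of RefSeq windows (GRCh38.p14) running from 250 bases before to 50 bases after each annotated start. Windows were at hand for 8 of the 10 genes (14 windows), and 2 of the 8 held it, against 4.46% of 27305 genes (35116 windows). A gene with more windows has more sequence searched. The 10 genes were also chosen by name as part of the amino acid response, so an excess over all genes is not read from this. The palindromic cAMP response element TGACGTCA was in 0 of the 8, against 2.25% of the 27305. The letters of the 2 motifs do not allow their matches to overlap, so the 0 overlaps in 35116 windows carry no information. The matches are shown with 20 bases on each side, on the gene's own strand, with the motif in capitals.
ASNS (chr7:97872449-97872496, minus strand, motif starting 68 bases upstream of the start): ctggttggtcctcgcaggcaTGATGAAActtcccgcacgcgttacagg
ATF3 (chr1:212565196-212565243, plus strand, motif starting 191 bases upstream of the start): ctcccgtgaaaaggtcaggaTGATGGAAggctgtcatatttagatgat
The genes that hold the motif were far apart in their differences, at -2.06 for ASNS and 0.13 for ATF3. PSAT1, with the lowest difference, had no match in its window. A match is only a run of letters, and no binding was measured here.

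Upstream of ATF4, the kinases that phosphorylate eIF2 differed unequally. EIF2AK2, the double-stranded RNA sensor PKR and an interferon-stimulated gene, read 1253 (control) and 4325 (miR-129-3p), a log2 difference of 1.77, with its 3 probe sets between 0.63 and 1.77. EIF2AK1, the haem-regulated kinase HRI, differed by 0.54 (1043 and 1528), and EIF2AK4, the amino acid sensor GCN2, by 0.18 (1367 and 1553). EIF2AK3, the endoplasmic reticulum kinase PERK, differed by -0.41 (842 and 630). PKR was the kinase past 1.5-fold. Phosphorylation of eIF2 was not measured, and whether EIF2AK2 bears on the signals of the 10 genes was not tested.

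The whole list held the eIF2 kinases, eIF2B subunits and eIF2 phosphatase subunits, and also EIF2S1, GCN1, DNAJC3 and IMPACT. In this list 2 of 15 measured genes were higher and 0 lower by at least 1.5-fold, and the median was 0.08. Over all 12754 genes 17.3% were higher and 10.8% lower. Besides EIF2AK2, the higher gene was EIF2B5, a subunit of the exchange factor that eIF2 phosphorylation blocks, at 0.64 on its brighter probe set and 0.31 on the other. PPP1R15A (GADD34), the phosphatase subunit that ATF4 and CHOP induce, was at -0.03, outside the rule for named genes and chosen after its value was seen.

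Other targets of ATF4 also went both ways. Of 34 listed genes 31 were measured, 10 were at least 1.5-fold lower and 4 higher, and the median was -0.25, beside 10.8% lower, 17.3% higher and a median of 0.03 over all 12754 genes. This list, like the other lists here, was drawn up with earlier results of these arrays known. NUPR1, a stress-induced chromatin protein, read 1550 (control) and 220 (miR-129-3p), a difference of -2.73. JDP2, a bZIP repressor, differed by -2.26 on its brighter probe set (809 and 156) but by only -0.18 on the other. CBS, which condenses serine with homocysteine, read 1321 and 318, and its 3 probe sets lay between -2.18 and -0.35. CHAC1, a glutathione-degrading enzyme that responds to ATF4 and CHOP, read 154 and 56.9, a difference of -1.22. CHAC1 passed the filter only through the control array, so it could only be lower and gives no separate support. On their brightest probe sets NUPR1, JDP2 and CBS were lower, as ASNS and PSAT1 were.

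The 4 targets that were at least 1.5-fold higher were WARS1, SLC7A11, CEBPB and CARS1, the last named after its value was seen. WARS1, the tryptophanyl-tRNA synthetase and also an interferon-induced gene, read 2043 (control) and 4587 (miR-129-3p), a difference of 1.16. SLC7A11, the cystine transporter, read 821 and 1450 (0.81), and its 2 probe sets lay between 0.81 and 0.90. CEBPB, a bZIP partner of ATF4 and DDIT3, read 4260 and 7413 (0.80). The other synthetases of the list, apart from CARS1 at 0.64, lay between -0.49 and -0.16. Among the amino acid transporters, SLC7A5, of large neutral amino acids, differed by -1.85 (3345 and 913), chosen after its value was seen. The other transporters of the list besides SLC7A11 were SLC7A1 (-1.34), SLC1A5 (-0.67) and SLC3A2 (-0.18), also added after their values were seen. The 4 probe sets of SLC7A1 ran from -1.34 to -0.08.

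**Figure D4:**
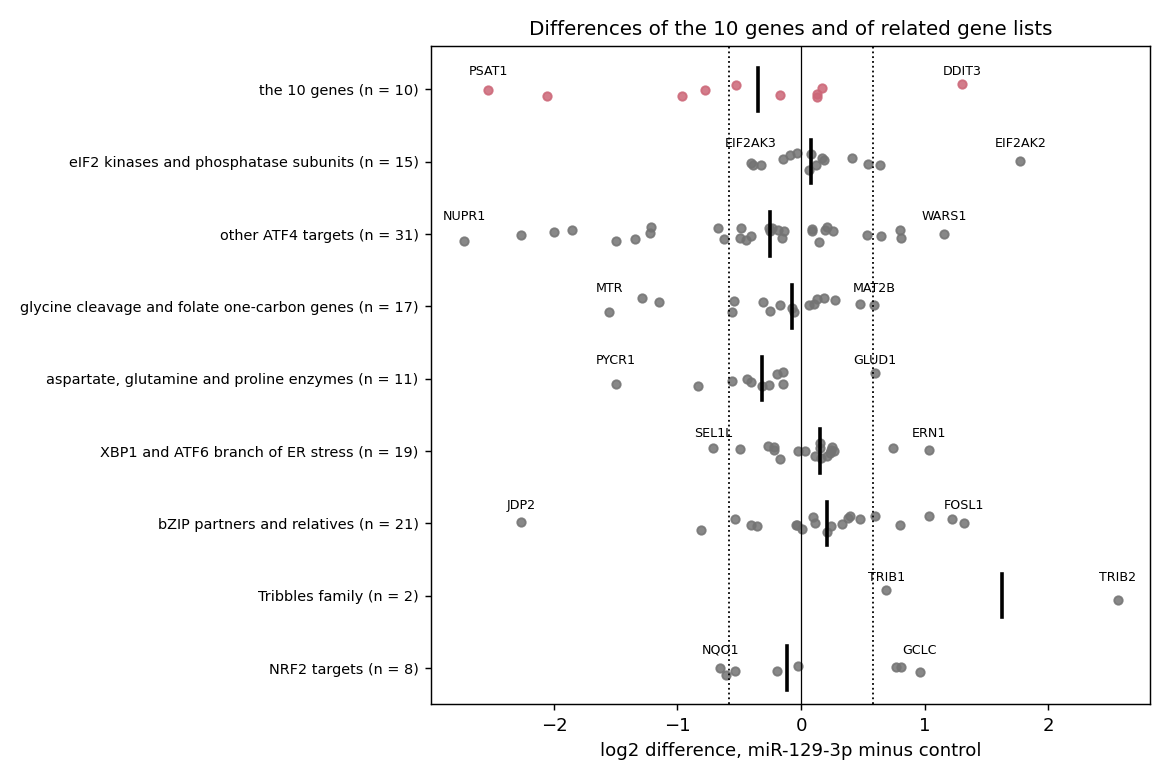
Log2 differences (miR-129-3p minus control) of the 10 genes and of the measured members of 8 related lists, with 1 point per gene, a black bar at each median, dotted lines at 1.5-fold and the lowest and highest gene named; vertical scatter within a row has no meaning. The list of other ATF4 targets has a median of -0.25 and runs from NUPR1 (-2.73) to WARS1 (1.16), while the XBP1 and ATF6 branch lies mostly within 1.5-fold.

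Around the serine and folate enzymes, most genes of the glycine cleavage, folate and methionine cycle list were within 1.5-fold. Of 17 measured genes 3 were lower and 1 higher by at least 1.5-fold, and the median was -0.07. Among all 12754 genes the shares were 10.8% lower and 17.3% higher. MTR, methionine synthase, read 981 (control) and 324 (miR-129-3p) (-1.55, and -1.07 on its other probe set). AHCY, which removes S-adenosylhomocysteine, read 2148 and 869 (-1.29), and GCSH, the H protein of glycine cleavage, 1790 and 800.5 (-1.15). MAT2B, a regulatory subunit of the enzyme that makes S-adenosylmethionine, was just past the limit on the higher side at 0.59. MTHFD1, the cytosolic counterpart of the mitochondrial folate enzymes, was at -0.07, chosen after its value was seen, against -0.97 for MTHFD2.

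Near asparagine synthesis, 2 of 11 measured enzymes of aspartate, glutamine and proline metabolism were lower and 1 higher by at least 1.5-fold, and the median was -0.32. All 12754 genes above the filter gave 10.8% lower, 17.3% higher and a median of 0.03. PYCR1, the last enzyme of proline synthesis in mitochondria, read 892 (control) and 305 (miR-129-3p) (-1.50). GOT1, the cytosolic aspartate aminotransferase, read 1085 and 603 (-0.83). GLUD1, glutamate dehydrogenase, read 2479 and 3756 (0.60). Of the 11 genes, 10 were below 0, beside 6002 of all 12754 genes, and most differences of the 10 were small.

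Most measured genes of the other branches of the endoplasmic reticulum stress response were within 1.5-fold. Of 19 measured genes of the XBP1 and ATF6 branch, 2 were higher and 1 lower by at least 1.5-fold, and the median was 0.15. The shares of all 12754 genes were 17.3% higher and 10.8% lower. ERN1, the IRE1 sensor that splices XBP1, was at 1.04 on the brightest of its probe sets, but the 3 ran from -0.24 to 1.66. DNAJB9, a co-chaperone, differed by 0.74 (its 3 probe sets from 0.55 to 0.74). SEL1L, of the degradation machinery, differed by -0.71 (its 3 probe sets from -0.71 to -0.25). The chaperone HSPA5 (BiP), the usual readout of this response, was at 0.25 (7521 and 8969) and at -0.43 on another probe set; it was chosen after its values were seen. The difference of DDIT3 stood beside chaperone signals that, apart from DNAJB9, stayed within 1.5-fold on their brightest probe sets. Whether endoplasmic reticulum stress bears on DDIT3 was not tested.

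Among bZIP partners and relatives, 5 of 21 measured genes were higher and 2 lower by at least 1.5-fold, and the median was 0.21. FOSL1, an AP-1 subunit, read 441 (control) and 1123 (miR-129-3p) (1.32). BATF3 read 105 and 266 (1.22), and CEBPD, a C/EBP factor of inflammation, 751 and 1558 (1.04). FOS, another AP-1 subunit, read 232 and 125 (-0.81), and JDP2, shared with the list of ATF4 targets, was the other lower gene. Over all 12754 genes the shares were 17.3% higher and 10.8% lower, so the counts of this list lie near the background.

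The 2 relatives of TRIB3 differed more than TRIB3 itself. TRIB2 read 381 (control) and 2331 (miR-129-3p), a log2 difference of 2.56, and 2.67 on its other probe set. TRIB1 read 1348 and 2183 (0.69). Within the Tribbles family, the member known as an ATF4 target was the one that stayed within 1.5-fold, at 0.17.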

How the data were processed

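The series holds 2 arrays, 1 per group, grouped by the genotype field of the labels; cRNA was made from 100 ng of total RNA, per the labels' protocols. The deposited values are 1 intensity per probe set on a linear scale from 1 to 20822. MAS5 and RMA are listed in the submitters' processing notes, but the method behind the intensities and the scaling are not stated, and detection calls are not given in the sources used here.

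Probe sets were named from the platform annotation: 41091 had 1 symbol, 1801 had several and 11721 were unlisted. Symbols were updated through gene IDs, which matched GRCh38.p14 for 41037. The brightest probe set of a gene, by mean log2(intensity + 16), stood for it, and a gene counted as measured at 100 or more on the brighter array. With 1 array per group no test was made, and the number of arrays limits the precision of every value. Code was tested on simulated data.

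Members and lists were chosen with earlier results of these data known. Named were all 10 genes, up to 3 genes at each end of a list if at least 1.5-fold different, and EIF2AK1 to EIF2AK4, TRIB1, TRIB2, CHAC1, SLC7A11 and CEBPB whatever their values; others are marked. Likeness of patterns cannot be measured over 2 arrays. Alternatives were added constants, scalings, filters, probe set choices and a fold limit of 2. Work was done in Python 3.11.15 with pandas 2.3.3, numpy 2.4.6, matplotlib 3.10.9 (figures) and statsmodels 0.14.6 (loess).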

Additional observations from a re-analysis of the deposited data

How the results depend on the processing

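Over 9 other settings of added constant, scaling, filter and probe set choice, each of the 10 genes kept its sign wherever it could be measured, and none of these differences moved by as much as the within-gene SD of 0.37. PSAT1 ranged from -2.59 to -2.20, ASNS from -2.13 to -1.93, MTHFD2 from -1.07 to -0.95, PHGDH from -0.85 to -0.75, and DDIT3 from 1.21 to 1.33. SHMT2, from -0.65 to -0.51, passed 1.5-fold only with quantile normalization, which made 5 genes at least 1.5-fold lower, and without probe sets ending in _x_at or _s_at. That last setting leaves 8 genes, since ASNS and PSAT1 rest on _s_at probe sets, and gave a median of -0.02 with 3 genes lower. A mean signal of 200 or more leaves out PSPH and gave a median of -0.53. With a fold limit of 2, 2 genes (PSAT1 and ASNS) were lower and 1 higher. The median of all genes stayed between -0.03 and 0.07. No paired analysis was possible because each group holds 1 array, and leaving out an array leaves no comparison.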

Other observations

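Targets of NRF2, which shares SLC7A11 with ATF4, did not go one way. Of 8 measured genes, 3 were higher and 2 lower by at least 1.5-fold, and the median was -0.11. For all 12754 genes the shares were 17.3% higher and 10.8% lower. GCLC and GCLM, the subunits of the enzyme that starts glutathione synthesis, differed by 0.96 (340, control, and 677, miR-129-3p) and 0.77 (872 and 1494). NQO1, a quinone reductase, differed by -0.65 (2605 and 1650), and ME1, a malic enzyme, by -0.61 (1664 and 1088).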
